A study of Mus musculus with 8 samples.

Results

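Cytochrome P450 genes of families 1 to 4 were taken as every row of the deposited expression tables whose gene symbol is Cyp, a family digit between 1 and 4, 1 subfamily letter and a gene number. This rule, which uses names and no measured value, found 75 of the 53379 listed genes. RNA had been sequenced from epithelial cells of the mouse distal colon (strain C57BL/6), shaken off in buffer, in 8 libraries that form 4 groups of 2. DSS-treated KO mice carried a deletion of the nuclear receptor gene Rora in the intestinal epithelium (labelled RORaΔIEC) and drank 2% dextran sulfate sodium, which injures the colon lining, for 5 days and plain water for 3 more. DSS-treated WT mice had floxed, undeleted Rora alleles (RORaf/f) and the same treatment. Untreated KO and untreated WT mice had the same genotypes without DSS. The Cre line behind the deletion, the animals' age and sex and whether the 2 libraries of a group came from separate animals are not given in the sources used here, so p-values measure only the spread between these libraries, which may be technical.

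Cytochrome P450 enzymes are heme proteins of the endoplasmic reticulum that insert oxygen into their substrates with electrons passed on by the reductase Por. Families 1 to 3 oxidise drugs, plant compounds, steroids and, in several subfamilies, arachidonic acid, while family 4 mainly hydroxylates fatty acids and the eicosanoids made from them. Their transcription is known to follow ligand-activated receptors, among them Ahr for family 1, the pregnane and constitutive androstane receptors Nr1i2 and Nr1i3 for the Cyp2b, Cyp2c and Cyp3a genes, and Ppara for Cyp4a.

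Each library held between 15971642 and 20418466 expected counts over all genes. Rora itself was near the detection limit, with 8 and 5 counts in the DSS-treated KO libraries, 16 and 14 counts in those of DSS-treated WT, 4 and 3 counts without DSS in KO, and 12 and 6 counts without DSS in WT. The counts were lower in KO than in WT under both conditions. Rora passed the filter on low counts through DSS-treated WT alone, so a difference from that group is built into its selection. The edgeR log2 fold change for DSS, -1.24, is therefore given without a p. Its call was lost in DESeq2, without the filter and when any 1 of the 8 libraries was left out (-1.61 to -0.94). The untreated value of -1.10 had an adjusted p of 0.238. These counts cover the whole gene and so do not test the deleted exon. All 9 epithelial markers were read in every library, and their summed level was between 14990 and 18110 CPM (counts scaled to library size, after TMM scaling). It was higher in KO than in WT under both conditions. The sums were 16040 and 16900 CPM in DSS-treated KO, 14990 and 15120 CPM in DSS-treated WT, 17980 and 18110 CPM in untreated KO, and 15420 and 15500 CPM in untreated WT. Of 8 colonocyte markers, 8 were lower with DSS in KO and 8 in WT (19.8% and 18.3% of all genes). Their summed CPM was 4982 and 5241 in DSS-treated KO, 5834 and 5955 CPM in DSS-treated WT, 9100 and 9124 CPM in untreated KO, and 9201 and 9054 CPM in untreated WT. The 7 goblet cell markers summed to 7580 and 7560 CPM in DSS-treated KO, 9659 and 9362 CPM in DSS-treated WT, 16310 and 16330 CPM in untreated KO, and 16750 and 17070 CPM in untreated WT. They did not all move alike: 5 were lower and 1 was higher with DSS in KO, and 5 were lower and 2 higher in WT. Over all genes, 19.8% were lower and 21.7% higher in KO, and 18.3% and 18.9% in WT. In such bulk RNA, fewer cells of a type and less RNA per cell cannot be told apart, and the part of these marker shifts in the P450 changes below was not tested.

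Of the 75 genes, 51 had a count in at least 1 library, 30 had a count in every library and 24 had none. Detection differed by family. Of family 1, 1 of 3 genes was detected, Cyp1a1, the classical target of Ahr, with at most 3 counts in a library, whereas Cyp1a2 and Cyp1b1 had none. Of 48 Cyp2 genes 34 had a count, of 7 Cyp3a genes 2, and of 17 Cyp4 genes 14. The liver enzymes Cyp2e1, which oxidises ethanol, and Cyp3a11, the main target of Nr1i2 in mouse liver, had no count in any library. Cyp2b10, the usual target of Nr1i3, reached 7 counts in its highest library, and Cyp4a10, a target of Ppara in liver, reached 5. A total of 30 genes passed the filter on low counts and were tested, and 45 did not. Among these 45, the highest count in a single library was 7.

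On the deposited TPM scale, which corrects for transcript length, 3 genes had the highest means. Cyp2c55 averaged 177 TPM over the 8 libraries, Cyp2d34 150 TPM and Cyp2c68 112 TPM, followed by Cyp2s1 at 79.4 TPM and Cyp4f14 at 51.5 TPM. The order differed between groups. Cyp2c55 averaged 37.9 TPM in DSS-treated KO, below Cyp2d34 (117.6 TPM), Cyp2c68, Cyp2s1, Cyp4f40 and Cyp4f16 there, against 176 TPM in DSS-treated WT. Summed over all 75 genes, levels came to 634 and 656 TPM in DSS-treated KO, 920 and 936 TPM in DSS-treated WT, 1085 and 1092 TPM in untreated KO, and 1170 and 1179 TPM in untreated WT. The 4 groups did not overlap, and both DSS groups lay below both untreated groups. The Cyp2c subfamily summed to 135 and 132 TPM in DSS-treated KO, against 339 and 352 TPM in DSS-treated WT, 440 and 438 TPM in untreated KO and 409 and 405 TPM in untreated WT. The Cyp2d subfamily summed to 178 and 192 TPM in DSS-treated KO, 214 and 212 TPM in DSS-treated WT, 261 and 266 TPM in untreated KO, and 368 and 375 TPM in untreated WT. The Cyp4f subfamily lay between 169 and 191 TPM in all 8 libraries, but its summed CPM after TMM scaling was lower in both DSS groups. That sum was 200.6 and 219.9 CPM in DSS-treated KO and 230.4 and 236.4 CPM in DSS-treated WT. Without DSS it was 252.8 and 245.8 CPM in KO and 255.9 and 250.6 CPM in WT. In DSS-treated KO, Cyp2c genes therefore made up 21.4% and 20.1% of the P450 TPM, against 36.8% and 37.7% in DSS-treated WT.

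**Figure D1:**
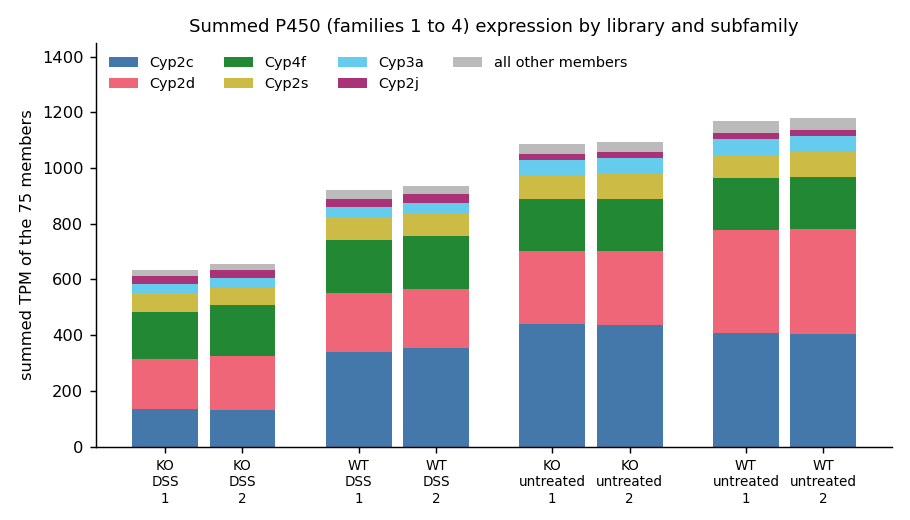
Summed TPM of the 75 P450 genes in each library (bars, 2 per group), split by subfamily. The bars of DSS-treated KO are the lowest (634 and 656 TPM) and lose most in the Cyp2c section. The Cyp4f section lies between 169 and 191 TPM in every library on this scale, while its CPM sum after TMM scaling is lower in both DSS groups.

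The 4 groups were compared in edgeR's quasi-likelihood test over all 14991 genes tested, and a gene was called at a Benjamini-Hochberg adjusted p below 0.05. In DSS-treated KO against DSS-treated WT, 2 of the 30 tested P450 genes were higher and 17 lower, where 21.3% and 17.7% of all genes tested were called in these directions (39.1% in either). Their median log2 fold change was -0.42, against -0.01 over all genes. In untreated KO against untreated WT, 4 were higher and 11 lower (9.19% and 6.22% of all genes, 15.4% in either direction), with a median of -0.27 against 0.01. DSS-treated KO against untreated KO gave 3 higher and 18 lower (21.7% and 19.8% of all genes, 41.6% in either direction), with a median of -0.63 against 0.00. DSS-treated WT against untreated WT gave 4 higher and 19 lower (18.9% and 18.3% of all genes, 37.2% in either direction), with a median of -0.49 against -0.01. The difference between the DSS change in KO and the DSS change in WT, the interaction, was positive for 4 and negative for 8 (10.8% and 10.6% of all genes, 21.4% in either direction).

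By gene, 16 of the 30 were lower with DSS in both genotypes (9.41% of all genes), 3 were higher in both (10.6% of all genes), and 1, Cyp2c65, moved in opposite directions. The count of 16 fell to 12 in DESeq2 and to 14 with effective-length offsets, and the count of 3 to 2 in each. Between the genotypes, 10 were lower in KO under both conditions (2.86% of all genes). This count of 10 fell to 6 without untreated KO replicate 1 or untreated WT replicate 1, to 6 with effective-length offsets and to 4 in DESeq2. Another 4 were higher in untreated KO but lower in DSS-treated KO (1.28% of all genes), namely Cyp2c55, Cyp2c65, Cyp4f14 and Cyp4b1. In DESeq2 and with effective-length offsets this pattern held 3 genes, without Cyp4b1. No call was made in any comparison for 6 genes: Cyp2w1, Cyp4f17, Cyp2r1, Cyp2j9, Cyp2c67 and Cyp2c44 (named Cyp2c23 in GENCODE M21). The comparisons share groups (both tests of KO against WT, for example, enter the interaction), so their counts are not independent. Of the 30, 2 passed the filter through the group where they are highest alone, Cyp4f18 (DSS-treated KO) and Cyp2c40 (untreated WT), so a difference from that group is built into their selection. Both stay in the counts. Cyp4f18 is among the 2 higher in DSS-treated KO than in DSS-treated WT, the 3 higher with DSS in KO and the 3 higher with DSS in both genotypes. Cyp2c40 is among the 19 lower with DSS in WT. Cyp4b1 passed through the 2 untreated groups alone, so a fall with DSS is built into its selection. It stays among the 18 lower with DSS in KO, the 19 in WT and the 16 in both.

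**Figure D2:**
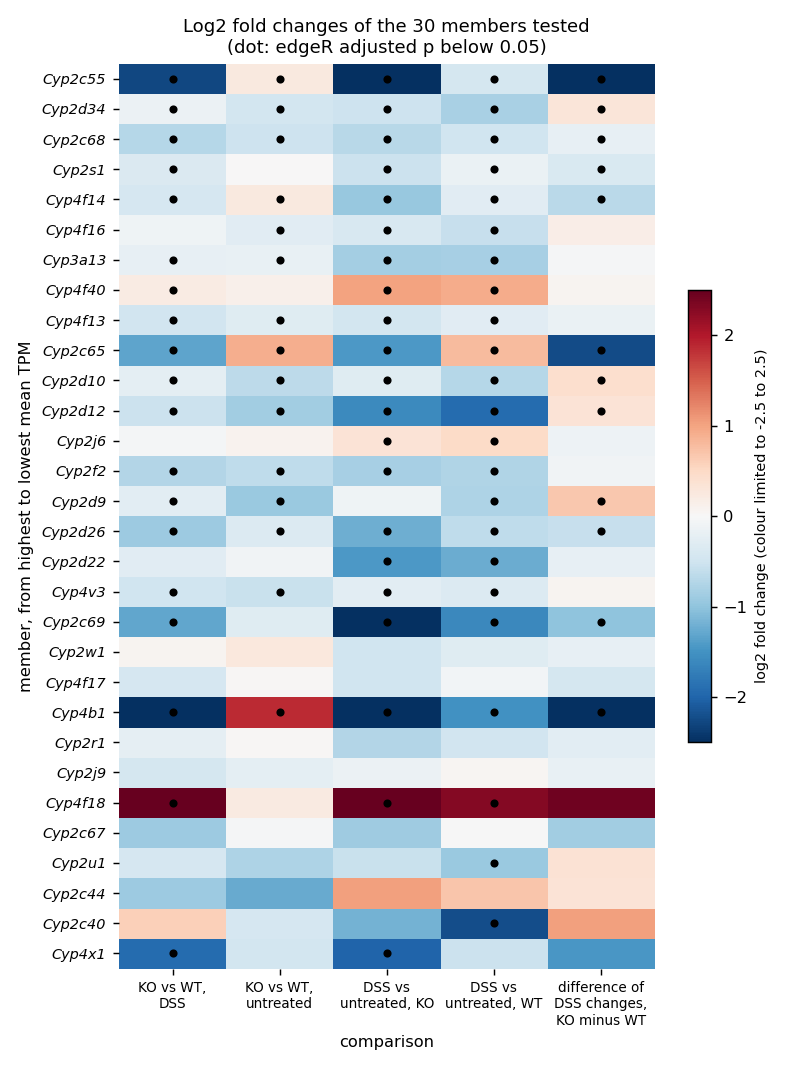
Log2 fold changes of the 30 tested P450 genes (rows, from highest to lowest mean TPM) in the 5 comparisons (columns), blue for lower and red for higher in the group named first, with a dot where the edgeR adjusted p is below 0.05. Blue cells outnumber red ones in all 5 columns. The red cells of Cyp2c55, Cyp2c65, Cyp4f14 and Cyp4b1 in untreated KO turn to blue under DSS.

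The Cyp2c genes, which in mouse oxidise arachidonic acid to epoxides and hydroxy acids as well as drugs, include Cyp2c55, the member with the highest mean TPM. Of 15 Cyp2c genes in the files, 7 were tested. In DSS-treated KO against DSS-treated WT 4 were lower (17.7% of all genes), and none was higher (21.3% of all genes). Their order on chromosome 19 (mm10, GENCODE M21) begins with Cyp2c55 (ENSMUSG00000025002.5, 39007019 to 39042693, plus strand), followed 18.3 kb downstream by Cyp2c65 (ENSMUSG00000067231.4, 39061015 to 39093944, plus strand). Cyp2c67, Cyp2c68, Cyp2c40 and Cyp2c69 lie farther along the cluster on the minus strand.

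Cyp2c55, a colon-enriched enzyme that makes hydroxy and epoxy products of arachidonic acid, had 49.3 and 48.5 CPM in DSS-treated KO, 229 and 242 CPM in DSS-treated WT, 382 and 379 CPM in untreated KO, and 326 and 314 CPM in untreated WT. No 2 groups overlapped, and the 2 DSS-treated KO libraries stood far below the other 6. The level in DSS-treated KO was 4.82-fold lower than in DSS-treated WT (log2 fold change -2.27 ± 0.05 SE, adjusted p = 4.99e-13) and 7.78-fold lower than in untreated KO (-2.96 ± 0.05, adjusted p = 1.13e-14). In WT the fall with DSS was smaller (-0.44 ± 0.04, adjusted p = 2.25e-06). In untreated KO it was 1.19-fold higher than in untreated WT (0.25 ± 0.04, adjusted p = 0.00107). The DSS changes of KO and WT differed by -2.52 ± 0.07 (adjusted p = 2.03e-11).

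Cyp2c65, another intestinal arachidonate epoxygenase, had 25.1 and 26.2 CPM in DSS-treated KO, 64.5 and 64.1 CPM in DSS-treated WT, 68.4 and 70.7 CPM in untreated KO, and 38.3 and 35.9 CPM in untreated WT. In untreated mice it was thus higher in KO than in WT (0.91 ± 0.05, adjusted p = 1.31e-07), and with DSS lower in KO than in WT (-1.33 ± 0.06, adjusted p = 8.12e-10). DSS went with a fall in KO (-1.44 ± 0.06, adjusted p = 1.14e-10) and with a rise in WT (0.79 ± 0.05, adjusted p = 7.19e-08). The interaction was -2.23 ± 0.08 (adjusted p = 4.50e-10). All 10 calls for Cyp2c55 and Cyp2c65 were kept under each alternative run for them.

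Cyp2c68 had 80.0 and 79.6 CPM in DSS-treated KO, 127 and 135 CPM in DSS-treated WT, 130 CPM in both untreated KO libraries, and 188 and 183 CPM in untreated WT. It was lower in KO under both conditions (-0.71 ± 0.05 with DSS, adjusted p = 4.38e-08, and -0.52 ± 0.04 untreated, adjusted p = 3.81e-06) and lower with DSS in both genotypes (-0.70 in KO and -0.51 in WT). DSS-treated WT and untreated KO lay at about the same level. Cyp2c69 had 1.27 and 0.973 CPM in DSS-treated KO, 2.76 and 2.77 CPM in DSS-treated WT, 7.69 and 6.12 CPM in untreated KO, and 8.96 and 8.01 CPM in untreated WT. It fell with DSS in KO (-2.62 ± 0.21, adjusted p = 1.83e-07) and in WT (-1.62 ± 0.17, adjusted p = 5.26e-06), and was lower in DSS-treated KO than in DSS-treated WT (-1.30 ± 0.25, adjusted p = 8.55e-04). Cyp2c40, which forms a hydroxy acid of arachidonic acid in mouse intestine, had 8 counts in DSS-treated KO, 5 in DSS-treated WT, 17 in untreated KO and 27 in untreated WT. Untreated WT held 4.80 times as much as DSS-treated WT, given without an interval because untreated WT is also the one group through which this gene passed the filter. Cyp2c68, Cyp2c69, Cyp2c67 and Cyp2c40 had expected counts that were not whole numbers (to within 0.005) in all 8 libraries. The authors' counting thus shared their reads with other genes, which were not traced, and their separate values are uncertain. Cyp2c55 had whole counts in every library, and Cyp2c65 in 5 of 8.

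**Figure D3:**
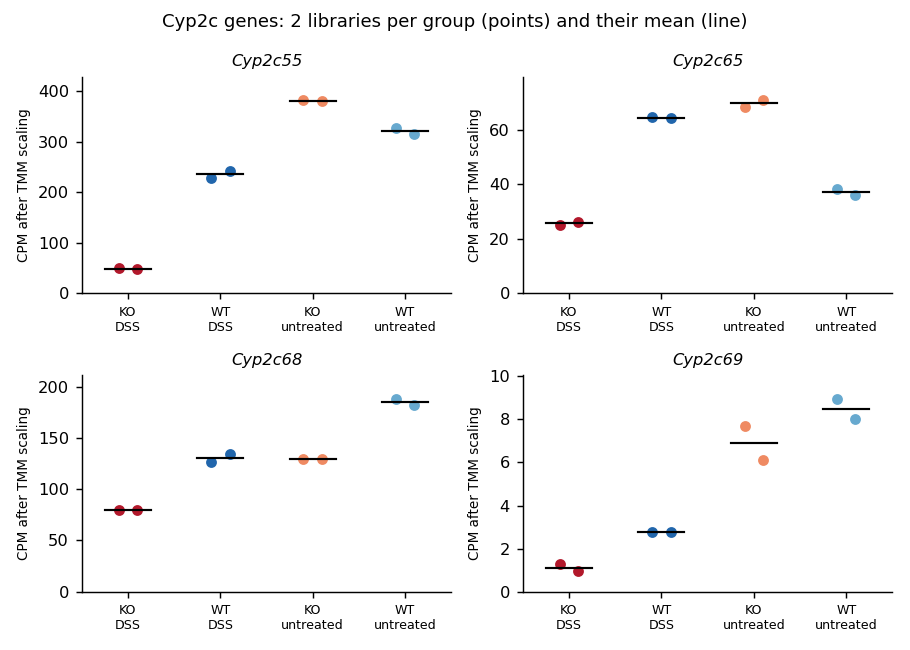
CPM after TMM scaling (y axis, from 0) of Cyp2c55, Cyp2c65, Cyp2c68 and Cyp2c69 in the 4 groups (x axis), with a point per library and a line at the mean of 2. Cyp2c65 is at about the same height in DSS-treated WT (64.5 and 64.1 CPM) and untreated KO (68.4 and 70.7 CPM) and lower in the other 2 groups. Cyp2c55 drops to 49.3 and 48.5 CPM in DSS-treated KO.

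Because the neighbours Cyp2c55 and Cyp2c65 went opposite ways with DSS in WT but both fell in KO, their promoter windows are shown. With them are those of the paralogs Cyp2d9 and Cyp2d10, whose expected counts were not whole numbers in any library, and of Cyp4b1, which moved most. Each window holds 250 bases before and 50 bases after the gene start in RefSeq (GRCm38.p6). They lie at chr19:39006769-39007068 (plus strand) for Cyp2c55, chr19:39060756-39061055 (plus) for Cyp2c65, chr15:82452127-82452426 (plus) for Cyp2d9, chr15:82407145-82407444 (minus) for Cyp2d10 and chr4:115647672-115647971 (minus) for Cyp4b1, and are written 5′ to 3′ on the gene's strand. Capitals mark the letters CAAAGNNCA on either strand, the core of the motif known for Hnf4a, a receptor abundant in gut epithelium.
Cyp2c55: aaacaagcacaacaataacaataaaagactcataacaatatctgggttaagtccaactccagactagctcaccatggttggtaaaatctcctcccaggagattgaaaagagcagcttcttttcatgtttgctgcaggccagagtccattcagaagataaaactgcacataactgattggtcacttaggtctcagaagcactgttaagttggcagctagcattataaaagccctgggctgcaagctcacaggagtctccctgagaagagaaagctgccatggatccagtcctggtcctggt
Cyp2c65: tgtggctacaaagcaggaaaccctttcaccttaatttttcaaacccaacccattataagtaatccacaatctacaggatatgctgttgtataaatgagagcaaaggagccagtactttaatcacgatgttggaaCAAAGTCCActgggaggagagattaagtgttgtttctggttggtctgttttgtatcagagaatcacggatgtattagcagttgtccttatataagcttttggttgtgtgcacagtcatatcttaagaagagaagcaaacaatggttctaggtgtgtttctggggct
Cyp2d9: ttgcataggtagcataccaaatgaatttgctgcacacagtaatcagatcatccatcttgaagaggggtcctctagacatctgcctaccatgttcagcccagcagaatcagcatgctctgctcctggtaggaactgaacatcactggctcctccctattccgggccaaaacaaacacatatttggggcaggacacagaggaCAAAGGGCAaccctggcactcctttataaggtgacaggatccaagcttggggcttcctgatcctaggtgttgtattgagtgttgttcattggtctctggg
Cyp2d10: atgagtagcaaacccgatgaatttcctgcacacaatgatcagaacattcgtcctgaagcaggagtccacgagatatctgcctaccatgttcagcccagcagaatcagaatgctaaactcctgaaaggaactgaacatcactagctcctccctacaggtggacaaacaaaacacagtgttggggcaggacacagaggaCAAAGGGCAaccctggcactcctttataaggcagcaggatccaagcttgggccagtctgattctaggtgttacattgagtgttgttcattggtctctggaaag
Cyp4b1: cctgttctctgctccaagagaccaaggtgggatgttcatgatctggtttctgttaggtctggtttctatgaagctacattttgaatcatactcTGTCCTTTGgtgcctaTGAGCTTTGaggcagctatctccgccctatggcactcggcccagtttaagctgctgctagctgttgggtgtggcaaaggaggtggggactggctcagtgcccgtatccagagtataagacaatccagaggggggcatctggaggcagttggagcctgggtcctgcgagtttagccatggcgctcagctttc

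The Cyp2c55 window held no CAAAGNNCA. The Cyp2c65 window had 1, 116 bases before the gene start, and the Cyp4b1 window had 2, both on the opposite strand. The Cyp2d9 and Cyp2d10 windows, identical at 82.9% of aligned positions, each had 1 in the same letters, 50 and 53 bases before the start. Of the 62 P450 genes with a RefSeq window 22 (35.5%) held CAAAGNNCA, and of the 23 tested ones 9 (39.1%), against 6.36% of all 32851 windows. For each motif, a P450 gene was counted if any of its windows held it (69 windows for the 62 genes). The share over all is per window, so the 2 are not quite alike. Many of these genes are close copies in clusters, so their windows are not independent, and the motif was picked after the sequences had been seen. The half-site AGGTCA, which ROR and other nuclear receptors bind, was in 30.6% of the P450 genes with a window and 16.3% of all windows, but in 1 of the 23 tested genes (Cyp2f2). GGGTCA was in 11.3% of the P450 genes and 13.7% of all windows, and GCGTG, the core of the Ahr motif, in 20.97% and 32.4%. All 4 motifs were searched on both strands, and the other 3 were absent from the 5 windows shown.

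The Cyp2d genes, the mouse relatives of the human drug-metabolising enzyme CYP2D6, form a cluster of 423.8 kb on chromosome 15 that holds 8 genes, 6 of them tested. In untreated KO against untreated WT 5 of the 6 were lower (6.22% of all genes) and none was higher (9.19% of all genes). With DSS all 6 were lower in WT and 5 in KO (18.3% and 19.8% of all genes). The interaction was positive for 4 of them (10.8% of all genes), Cyp2d9, Cyp2d10, Cyp2d34 and Cyp2d12, which means that the fall with DSS was smaller in KO. It was negative for Cyp2d26 (10.6% of all genes). DESeq2 lost the interaction calls of Cyp2d10, Cyp2d12 and Cyp2d26. It also lost the calls between the DSS-treated genotypes for Cyp2d34, Cyp2d10 and Cyp2d9, and the untreated genotype call for Cyp2d26.

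Cyp2d34 (ENSMUSG00000094559.1, chromosome 15, 82615965 to 82620946) had 115 and 126 CPM in DSS-treated KO, 132 and 136 CPM in DSS-treated WT, 171 and 172 CPM in untreated KO, and 234 and 235 CPM in untreated WT. Its untreated level was 1.37-fold lower in KO than in WT (-0.45 ± 0.05, adjusted p = 1.87e-05), and it fell with DSS (log2 fold change -0.51 ± 0.05 in KO and -0.81 ± 0.05 in WT). With DSS the genotypes lay close together (-0.15, adjusted p = 0.0262), and that call was lost without DSS-treated KO replicate 1 (-0.08), DSS-treated WT replicate 1 (-0.18) or DSS-treated WT replicate 2 (-0.13). Cyp2d10 had 27.4 and 29.2 CPM in DSS-treated KO, 34.1 and 32.8 CPM in DSS-treated WT, 34.9 and 35.0 CPM in untreated KO, and 55.6 and 54.5 CPM in untreated WT. The untreated difference between KO and WT was -0.66 ± 0.06 (adjusted p = 3.28e-06), and under DSS it was -0.24, a call lost without DSS-treated WT replicate 1 (-0.21). Cyp2d9, a testosterone hydroxylase of male mouse liver, had 14.1 and 17.5 CPM in DSS-treated KO, 19.3 and 18.7 CPM in DSS-treated WT, 17.5 and 16.5 CPM in untreated KO, and 32.4 and 32.2 CPM in untreated WT. Untreated WT stood apart from the other 3 groups, Cyp2d9 fell with DSS in WT (-0.77 ± 0.09, adjusted p = 9.27e-06), and in KO the value was -0.10 (adjusted p = 0.444). The interaction of 0.67 ± 0.13 had an adjusted p of 0.00262, whereas the call between the DSS-treated genotypes (-0.26, adjusted p = 0.0429) was lost without each library but DSS-treated KO replicate 2 (-0.29 to -0.11).

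Cyp2d12 changed most with DSS among the Cyp2d genes. It had 11.2 and 13.3 CPM in DSS-treated KO, 17.9 and 17.4 CPM in DSS-treated WT, 35.9 and 38.0 CPM in untreated KO, and 68.0 and 66.2 CPM in untreated WT. All 4 groups were apart, and the level fell 3.01-fold with DSS in KO (adjusted p = 1.40e-09) and 3.80-fold in WT (adjusted p = 8.13e-11). Its difference between KO and WT was -0.53 ± 0.09 with DSS and -0.86 ± 0.06 untreated. The interaction of Cyp2d12 (0.33, adjusted p = 0.0481) was lost without each library but DSS-treated KO replicate 1 (0.20 to 0.38). Cyp2d26 had 8.34 and 9.21 CPM in DSS-treated KO, 17.6 and 15.6 CPM in DSS-treated WT, 18.8 and 22.1 CPM in untreated KO, and 27.1 and 24.4 CPM in untreated WT. It differed from the 4 Cyp2d genes with a positive interaction in that the gap between KO and WT was larger with DSS (-0.92 ± 0.12, adjusted p = 2.46e-05) than without (-0.33 ± 0.09, adjusted p = 0.0257), with an interaction of -0.58 ± 0.15 (adjusted p = 0.0137). The untreated call for Cyp2d26 was lost without untreated KO replicate 1 (-0.23) or untreated WT replicate 1 (-0.26), and the interaction without DSS-treated WT replicate 1 (-0.49), untreated KO replicate 2 (-0.46) or untreated WT replicate 2 (-0.51). Cyp2d22, the proposed mouse counterpart of CYP2D6, had 8.69 and 8.76 CPM in DSS-treated KO, 11.0 and 10.3 CPM in DSS-treated WT, 23.6 and 23.9 CPM in untreated KO, and 23.6 and 27.2 CPM in untreated WT. It fell with DSS in KO (-1.44 ± 0.10) and WT (-1.25 ± 0.09) and was not called between the genotypes (adjusted p = 0.0550 with DSS and 0.503 untreated). By the same tolerance of 0.005, expected counts of Cyp2d9, Cyp2d10 and Cyp2d12 were not whole numbers in any library, whereas Cyp2d34 and Cyp2d26 had whole counts throughout. Reads of Cyp2d9, Cyp2d10 and Cyp2d12 were thus shared with other genes, and with which ones was not traced.

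**Figure D4:**
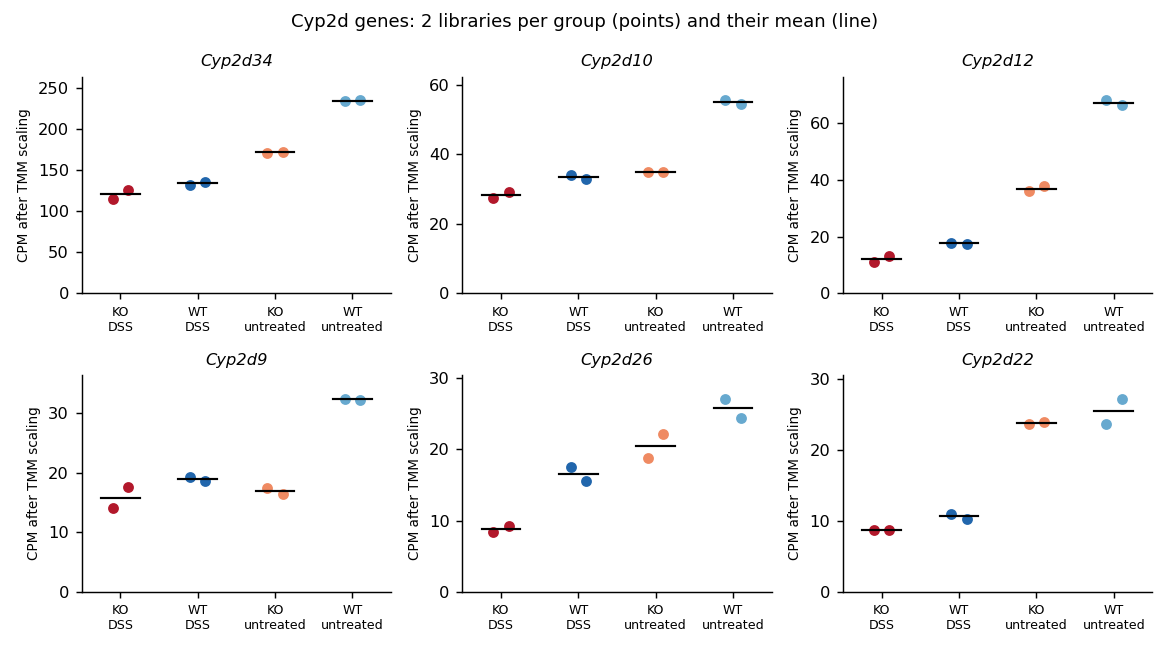
CPM after TMM scaling (y axis, from 0) of the 6 tested Cyp2d genes in the 4 groups (x axis), with a point per library and a line at the mean of 2. Untreated WT is the highest group for Cyp2d34, Cyp2d10, Cyp2d12, Cyp2d9 and Cyp2d26, while the 2 untreated groups of Cyp2d22 meet at 23.6 CPM.

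Of the other family 2 and 3 genes, Cyp2s1, an epithelial enzyme induced through Ahr, had 122 and 117 CPM in DSS-treated KO, 152 and 154 CPM in DSS-treated WT, 166 and 181 CPM in untreated KO, and 167 and 177 CPM in untreated WT. The untreated genotypes overlapped (0.01, adjusted p = 0.912), and DSS-treated KO was lower than DSS-treated WT (-0.36 ± 0.05, adjusted p = 7.21e-05) and untreated KO (-0.54 ± 0.05, adjusted p = 1.08e-06). The smaller fall in WT (-0.17, adjusted p = 0.0186) was lost without DSS-treated WT replicate 1 (-0.16) or 2 (-0.18) or untreated WT replicate 2 (-0.13), and the interaction was -0.37 ± 0.07 (adjusted p = 0.00232). Cyp3a13, the Cyp3a gene of mouse intestine and the single family 3 gene tested, had 63.2 and 66.8 CPM in DSS-treated KO, 71.9 and 78.7 CPM in DSS-treated WT, 118 and 117 CPM in untreated KO, and 136 and 130 CPM in untreated WT. It fell with DSS by about the same factor in KO (-0.85 ± 0.05) and in WT (-0.83 ± 0.05), with an interaction of -0.03 ± 0.08 (adjusted p = 0.843). Its differences between KO and WT were small (-0.21 with DSS and -0.18 untreated), and those calls were lost without DSS-treated WT replicate 2 (-0.15) and, untreated, without any 1 of the 4 untreated libraries (-0.22 to -0.15).

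Cyp2f2, which activates naphthalene in mouse airway, had 13.4 and 13.9 CPM in DSS-treated KO, 22.4 and 22.7 CPM in DSS-treated WT, 23.8 and 24.7 CPM in untreated KO, and 39.1 and 36.3 CPM in untreated WT. It was lower in KO than in WT with DSS (log2 fold change -0.73 ± 0.08) and without (-0.64 ± 0.07), and lower with DSS in KO (-0.83 ± 0.08) and in WT (-0.74 ± 0.07), with a largest adjusted p of 1.97e-05. Its interaction was -0.09 ± 0.10 (adjusted p = 0.586). Cyp2j6, of the arachidonate epoxygenase subfamily, was among the few that rose. It had 70.4 and 73.0 CPM in DSS-treated KO, 72.7 and 74.7 CPM in DSS-treated WT, 55.5 and 56.8 CPM in untreated KO, and 54.7 and 50.9 CPM in untreated WT, a rise of 0.35 ± 0.05 in KO (adjusted p = 1.05e-04) and 0.48 ± 0.05 in WT (adjusted p = 8.84e-06). The genotypes were not called different for Cyp2j6 (adjusted p = 0.571 with DSS and 0.324 untreated). Cyp2w1 had 2.82 and 2.63 CPM in DSS-treated KO, 2.52 and 2.71 CPM in DSS-treated WT, 3.62 and 4.04 CPM in untreated KO, and 2.70 and 3.75 CPM in untreated WT. It was not called in any comparison. Cyp2u1 had 28 counts in DSS-treated KO, 36 in DSS-treated WT, 38 in untreated KO and 77 in untreated WT, and its fall with DSS in WT (-0.92 ± 0.29, adjusted p = 0.0211) was lost without DSS-treated WT replicate 1 or untreated WT replicate 1 (-1.17 to -0.70 over all libraries left out). Cyp2r1, a vitamin D hydroxylase, lay between 0.690 and 1.79 CPM in all libraries, also with no call.

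Family 4 holds the fatty acid and eicosanoid hydroxylases, and 9 of its 17 genes were tested. Cyp4f14, a leukotriene hydroxylase of mouse liver, had 51.2 and 56.7 CPM in DSS-treated KO, 73.6 and 70.5 CPM in DSS-treated WT, 103 and 104 CPM in untreated KO, and 90.5 and 83.9 CPM in untreated WT. DSS-treated KO was lower than DSS-treated WT (-0.42 ± 0.06, adjusted p = 8.04e-05), and the fall with DSS was larger in KO (-0.94 ± 0.06) than in WT (-0.28 ± 0.06), with an interaction of -0.67 ± 0.08 (adjusted p = 6.54e-05). Its higher level in untreated KO (0.25, adjusted p = 0.00716) was lost without untreated KO replicate 1 (0.26) or 2 (0.24) or untreated WT replicate 2 (0.20). Cyp4f40, another gene of this subfamily, had 71.5 and 72.7 CPM in DSS-treated KO, 61.7 and 64.1 CPM in DSS-treated WT, 38.3 and 34.0 CPM in untreated KO, and 32.6 and 33.6 CPM in untreated WT. It rose 2.00-fold with DSS in KO (adjusted p = 8.13e-09) and 1.90-fold in WT (adjusted p = 4.43e-08), the reverse of Cyp4f14. Its difference between the DSS-treated genotypes (0.20, adjusted p = 0.0110) was lost without DSS-treated WT replicate 1 (0.17). Cyp4f16 had 45.6 and 52.0 CPM in DSS-treated KO, 52.2 and 53.5 CPM in DSS-treated WT, 65.0 and 63.5 CPM in untreated KO, and 77.3 and 79.3 CPM in untreated WT. Cyp4f13 had 28.1 and 34.2 CPM in DSS-treated KO, 40.6 and 45.8 CPM in DSS-treated WT, 43.9 and 41.5 CPM in untreated KO, and 53.4 and 51.6 CPM in untreated WT. Both were highest in untreated WT and fell with DSS, Cyp4f16 with log2 fold changes of -0.40 ± 0.06 in KO and -0.57 ± 0.06 in WT, and Cyp4f13 with -0.45 ± 0.09 in KO and -0.28 ± 0.08 in WT. Of these, the Cyp4f13 call in WT was lost without DSS-treated WT replicate 1 (-0.20) or untreated WT replicate 1 (-0.26).  Cyp4v3, the counterpart of human CYP4V2, had 11.5 and 10.9 CPM in DSS-treated KO, 15.3 and 16.01 CPM in DSS-treated WT, 13.0 and 13.8 CPM in untreated KO, and 19.3 and 20.2 CPM in untreated WT, lower in KO with DSS (-0.49 ± 0.09, adjusted p = 5.90e-04) and without (-0.56 ± 0.08, adjusted p = 4.01e-04).

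Cyp4b1, which hydroxylates fatty acids and activates the lung toxin ipomeanol, spanned the widest range. The 2 libraries of a group together held 1 count in DSS-treated KO, 15 in DSS-treated WT, 152 in untreated KO and 49 in untreated WT, or 0 and 0.0572 CPM, 0.421 and 0.471 CPM, 4.38 and 5.08 CPM, and 1.35 and 1.23 CPM in these groups. Without DSS it was higher in KO than in WT (1.87 ± 0.24, adjusted p = 9.91e-05). With DSS, DSS-treated WT exceeded DSS-treated KO 15.6-fold (95% exact counting interval 2.39 to 655, which covers counting error only), and untreated KO exceeded DSS-treated KO 165-fold. The fitted log2 fold changes behind these ratios rest on 1 count and moved to -2.81 and -6.20 without DSS-treated KO replicate 1 and to -5.97 and -9.36 without DSS-treated KO replicate 2. The log2 fold change with DSS in WT was -1.52 ± 0.37, a call lost in DESeq2. Cyp4b1 passed the filter through the untreated groups alone, so a fall with DSS is built into its selection. Its falls with DSS are therefore given without a p or an interval. The call for DSS-treated KO against DSS-treated WT was lost with effective-length offsets. The adjusted p of the interaction was 3.22e-04. Cyp4x1, at most 0.851 CPM, had 5 counts in DSS-treated KO, 19 in DSS-treated WT, 19 in untreated KO and 31 in untreated WT. It was called lower in DSS-treated KO than in DSS-treated WT (adjusted p = 0.0155) and untreated KO (adjusted p = 0.0116), and the first call was lost without DSS-treated KO replicate 2, DSS-treated WT replicate 1 or DSS-treated WT replicate 2 (-2.23 to -1.67 over all libraries left out), the second without DSS-treated KO replicate 2 (-1.74) or untreated KO replicate 1 (-1.72).

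Cyp4f18, the leukotriene hydroxylase of mouse neutrophils, was a low gene that was higher with DSS. Its groups held 93 counts in DSS-treated KO, 14 in DSS-treated WT, 3 in untreated KO and 3 in untreated WT, or 2.59 and 2.75 CPM, 0.361 and 0.471 CPM, 0 and 0.184 CPM, and 0.0501 and 0.112 CPM. The log2 fold change of DSS-treated KO over DSS-treated WT was 2.66 ± 0.39, and DSS-treated KO held 28.5 times the level of untreated KO. Both are given without a p or an interval, because the gene passed the filter through DSS-treated KO alone. In WT the ratio of DSS-treated to untreated libraries was 5.25 (95% exact counting interval 1.47 to 28.5). The call for DSS in WT was lost without DSS-treated WT replicate 1 (2.46) or 2 (2.09) or untreated WT replicate 1 (1.83) or 2 (2.88). All 10 neutrophil markers were higher in DSS-treated KO than in DSS-treated WT (21.3% of all genes). Their summed CPM was 220 and 234 in DSS-treated KO, 11.5 and 13.3 CPM in DSS-treated WT, 0.381 and 0.245 CPM in untreated KO, and 0.1001 and 0.168 in untreated WT. In each untreated library 7 or 8 of the 10 were at 0 counts. Macrophage markers summed to 161 and 170.5 CPM in DSS-treated KO, 75.6 and 75.01 CPM in DSS-treated WT, 48.9 and 51.2 CPM in untreated KO, and 48.5 and 50.5 CPM in untreated WT. The part of either cell type in the Cyp4f18 change was not tested.

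**Figure D5:**
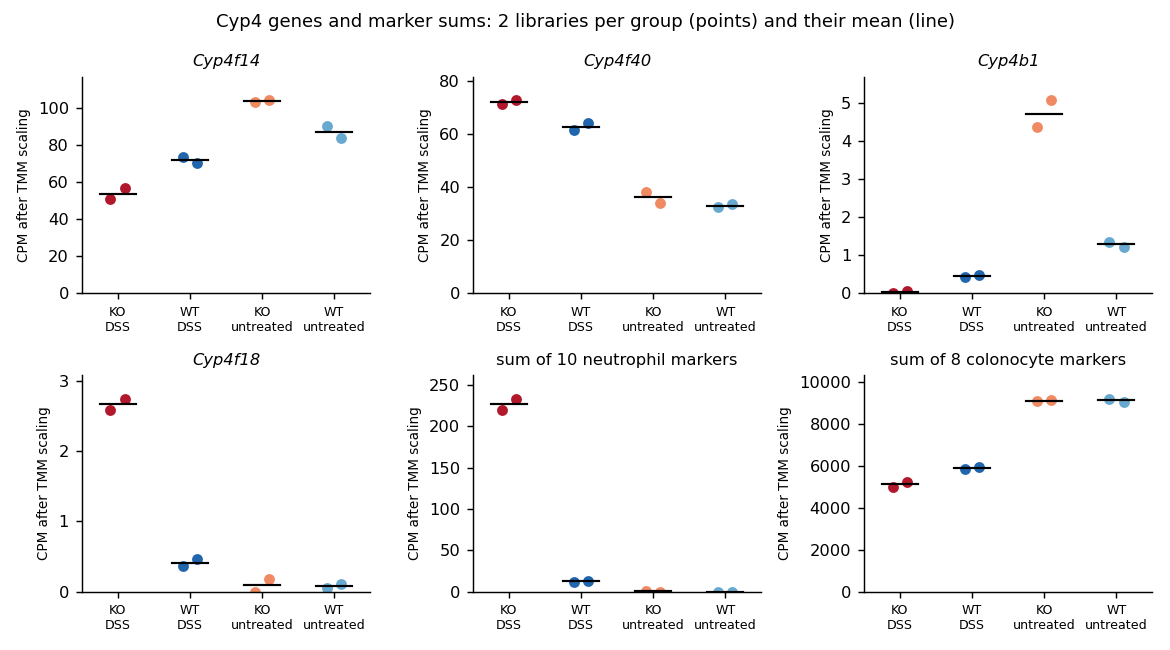
CPM after TMM scaling (y axes, from 0) of 4 Cyp4 genes and the summed CPM of 10 neutrophil and 8 colonocyte markers in the 4 groups (x axis), with a point per library and a line at the mean of 2. Cyp4f18 and the neutrophil sum are both highest in DSS-treated KO (2.59 and 2.75 CPM, and 220 and 234 CPM), Cyp4b1 is highest in untreated KO (4.38 and 5.08 CPM), and Cyp4f40 is higher in both DSS groups.

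Among 16 receptors and partners that control P450 genes, 15 were tested. In DSS-treated KO against DSS-treated WT 1 was higher and 9 lower (66.7% called, against 39.1% of all genes), and in untreated KO against untreated WT 1 was higher and 3 lower (26.7%, against 15.4% of all genes). Of the 3, the call for Nr1i3 (adjusted p = 0.0405) was lost without any 1 of the 4 untreated libraries, and that for Nr1i2 (adjusted p = 0.0100) without 3 of them. Ahr, the receptor of dioxin and plant indoles, lay between 18.1 and 20.9 CPM in all libraries and was not called in any comparison (smallest adjusted p 0.0640). Nr1i3 had 3.97 and 3.21 CPM in DSS-treated KO, 4.39 and 4.83 CPM in DSS-treated WT, 7.88 and 7.59 CPM in untreated KO, and 10.4 and 9.97 CPM in untreated WT. It fell with DSS in KO (-1.11 ± 0.15, adjusted p = 2.95e-05) and WT (-1.14 ± 0.13, adjusted p = 1.39e-05). Nr1i2 fell with DSS as well (log2 fold change -0.24 ± 0.05 in KO and -0.27 ± 0.05 in WT). Ppara, the fatty acid receptor, had 4.60 and 3.03 CPM in DSS-treated KO, 7.93 and 7.12 CPM in DSS-treated WT, 10.5 and 9.79 CPM in untreated KO, and 7.66 and 8.24 CPM in untreated WT. It was lower in DSS-treated KO than in DSS-treated WT (-0.98 ± 0.17, adjusted p = 3.90e-04) and than in untreated KO (-1.41 ± 0.16), and in WT the DSS value was -0.08 (adjusted p = 0.723). Hnf4a, at 798 and 742 CPM in DSS-treated KO, 895 and 865 CPM in DSS-treated WT, 906 and 923 CPM in untreated KO and 882 and 890 CPM in untreated WT, was slightly lower in DSS-treated KO than in DSS-treated WT (-0.19 ± 0.04, adjusted p = 0.00231).

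Of 8 other drug metabolism genes listed as targets of Nr1i2 and Nr1i3 (transporters, conjugating enzymes, the carboxylesterase Ces2a and the aldehyde dehydrogenase Aldh1a1), none was higher and 7 were lower in DSS-treated KO than in DSS-treated WT (87.5% called, against 39.1% of all genes in either direction and 17.7% lower). In untreated KO against untreated WT 3 were higher and 3 lower (75% called, against 15.4% of all genes). Ugt1a1, the bilirubin-conjugating enzyme, moved in the same 4 directions as Cyp2c65. It had 23.4 and 22.0 CPM in DSS-treated KO, 35.4 and 46.2 CPM in DSS-treated WT, 54.0 and 56.0 CPM in untreated KO, and 29.3 and 26.5 CPM in untreated WT, that is 0.98 ± 0.10 for untreated KO against WT, -0.85 ± 0.10 under DSS, -1.28 ± 0.10 for DSS in KO and 0.55 ± 0.10 for DSS in WT (largest adjusted p 6.50e-04). The drug exporter gene Abcb1a had 261 and 239 CPM in DSS-treated KO, 499 and 496 CPM in DSS-treated WT, 694 and 698 CPM in untreated KO, and 768 and 776 CPM in untreated WT. Of 11 tested targets of Ppara, none was higher and 4 were lower in DSS-treated KO than in DSS-treated WT. These 36.4% compare with 17.7% of all genes called lower and 39.1% called in either direction. All 11 had a negative log2 fold change, with a median of -0.26 against -0.01 over all genes.

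Of 16 genes for electron transfer and heme, all tested, 5 were higher and 1 was lower in DSS-treated KO against DSS-treated WT (37.5% called, near the 39.1% of all genes). Por, which feeds electrons to these P450 enzymes, had 123 and 128 CPM in DSS-treated KO, 136 and 139 CPM in DSS-treated WT, 156 and 158 CPM in untreated KO, and 139 and 152 CPM in untreated WT. It fell with DSS in KO (-0.32 ± 0.05, adjusted p = 1.31e-04) and was not called between the genotypes. Its value for DSS-treated KO against DSS-treated WT (-0.13, adjusted p = 0.0609) lay near the threshold and passed with the replicate block (adjusted p = 0.0487) and without DSS-treated KO replicate 2 (-0.16), untreated WT replicate 1 or untreated WT replicate 2. Alas1, the first enzyme of heme synthesis, went against the direction of most P450 genes. It had 183 and 192 CPM in DSS-treated KO, 136 CPM in both DSS-treated WT libraries, 129 and 126 CPM in untreated KO, and 103 and 104 CPM in untreated WT, higher in KO with DSS (0.46 ± 0.04, adjusted p = 1.41e-06) and without (0.30 ± 0.05, adjusted p = 4.07e-04), and higher with DSS in KO (0.56 ± 0.04) and in WT (0.40 ± 0.05).

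The files list 25 P450 genes outside families 1 to 4, of which 5 were tested. In DSS-treated KO against DSS-treated WT 1 of these was lower (20%, near the 17.7% of all genes) and none was higher (21.3% of all genes). The 1 called was Cyp11a1, with 1 count in DSS-treated KO and 12 in DSS-treated WT. Cyp51, the sterol demethylase of cholesterol synthesis, had 214 and 211 CPM in DSS-treated KO, 203 and 198 CPM in DSS-treated WT, 162 CPM in both untreated KO libraries, and 99.7 and 101 CPM in untreated WT, so that it was higher with DSS in both genotypes (0.39 in KO and 1.00 in WT).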

How the data were processed

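RNA from epithelial cells of the mouse distal colon was sequenced in 8 libraries. Per the submitters' processing notes, the authors used the mm10 build, DESeq2 1.18.1, RSEM 1.3.0 and STAR 2.5.3a. The annotation release and strand setting are not given in the sources used here. The deposited expected counts per gene are RSEM estimates that share reads among similar genes, and the deposited TPM values scale them by effective length and library.

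Expected counts were rounded to whole numbers, filtered (filterByExpr), TMM-scaled and fitted with edgeR 4.0.16 (R 4.3.3) as 4 group means in a quasi-likelihood model, leaving 4 residual degrees of freedom. P-values were adjusted by Benjamini-Hochberg over 14991 genes and called below 0.05. Each SE was taken from the fold change and its F statistic (log2 fold change over root F). TPM was used to compare levels between genes and to sum them by subfamily, and these sums were not TMM-scaled. The procedure was tested on simulated data. Depth was between 15971642 and 20418466 counts, and counting intervals are exact at 95%. The groups share replicate numbers without any stated shared animal, litter or day, so the numbers were not used as pairs.

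The genes and gene lists were chosen with earlier results of these data known. Any tested P450 gene could be named. Values per library are given for the 20 with the highest mean TPM and for up to 8 with the smallest called adjusted p in each comparison. From the pathway lists, up to 4 called genes per list and comparison could be named, and Rora, Ahr, Nr1i2, Nr1i3, Ppara, Hnf4a and Por at any p. Alternatives were DESeq2 1.42.0, RLE scaling, no filter, effective-length offsets, only the compared groups, a replicate block and leaving out each library. Positions are from GENCODE M21 and promoter sequences from RefSeq GRCm38.p6.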

Additional observations from a re-analysis of the deposited data

Results flagged for a closer look

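The change with DSS differed between KO and WT, by a test of that difference (edgeR interaction, adjusted p below 0.05), for 12 of the 30 tested P450 genes (40%, against 21.4% of all genes). The difference, KO minus WT in log2 units, was -2.52 for Cyp2c55, -2.23 for Cyp2c65, -0.20 for Cyp2c68, -0.9985 for Cyp2c69, -0.67 for Cyp4f14, -0.37 for Cyp2s1 and -0.58 for Cyp2d26. Cyp4b1 had -5.52, a fitted value that depends on the prior count because DSS-treated KO held 1 count. The difference was positive for Cyp2d9 (0.67), Cyp2d10 (0.41), Cyp2d12 (0.33) and Cyp2d34 (0.30), which fell less with DSS in KO.

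Among the named receptors, partners and targets the same test gave -1.33 for Ppara, -0.24 for Hnf4a, -0.24 for Por, -1.82 for Ugt1a1, -1.23 for Aldh1a1, -0.86 for Sult1a1, -0.84 for Abcb1a, -0.25 for Ces2a, 1.06 for Hmox1 and 2.87 for Alox5ap. Of these calls, that of Ppara was lost with effective-length offsets (-0.70), that of Hmox1 under 2 alternatives, that of Hnf4a under 4, that of Por under 6 and that of Ces2a under 8, libraries left out included.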

How the results depend on the processing

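Of 90 called values of P450 genes, 64 were called under each alternative that gave an adjusted p for them, 26 were lost under at least 1, and none changed direction. DESeq2 gave an adjusted p for 88 of the 90, and the fit of only the libraries compared gave one for 74, none of them an interaction. In DSS-treated KO against DSS-treated WT, the count of higher genes was 1 in place of 2 in DESeq2 and with effective-length offsets. In untreated KO against untreated WT, 7 in place of 11 were lower with effective-length offsets. DESeq2 gave an interaction that was positive for 2 and negative for 5, in place of 4 and 8. Leaving out each library in turn gave 1 to 2 higher and 13 to 17 lower for KO against WT with DSS, 3 to 4 and 8 to 11 untreated, 3 to 4 and 16 to 19 for DSS in KO, 3 to 4 and 15 to 19 for DSS in WT, and 3 to 5 positive and 5 to 8 negative interactions. The interaction was negative for 5 without DSS-treated WT replicate 1 or untreated WT replicate 2, and 1 gene was higher in KO under DSS without DSS-treated WT replicate 1. The Cyp2c68 interaction was lost without each library but DSS-treated KO replicate 1 (-0.24 to -0.15), and that of Cyp2c69 without 5 of the 8 (-1.20 to -0.82 over all libraries left out). The cause of these changes was not tested.

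Over all genes, DESeq2 called 3417, 1102, 3849, 3028 and 1472 genes in the 5 comparisons, where edgeR called 5855, 2310, 6231, 5573 and 3208. Effective-length offsets gave 1290 untreated and 1794 interaction calls. With the replicate number as a block, 2 were higher and 16 lower, 4 and 11, 3 and 18, and 4 and 19 in the 4 comparisons, and the interaction was positive for 3 and negative for 7. Libraries with the same number did not deviate together (correlations -0.112 to 0.077). With 2 libraries a group, changes of genes with few counts, such as Cyp4b1, Cyp4f18, Cyp4x1 and Cyp2c40, are the least precise.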
